A study of Mus musculus with 2 samples.

Results

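Pou5f1, Sox2, Nanog, Klf4 and Zfp42 are the 5 core pluripotency factor genes described here, each taken as a named span of the mouse build mm9. They were measured by messenger RNA sequencing in mouse embryonic stem (ES) cells that had been sorted by flow cytometry on the 2C::tomato fluorescent reporter. There was 1 library of 2C::tomato+ cells and 1 of 2C::tomato- cells, 2 libraries in all. Both populations are labelled as ES cells of mixed strain background that carry Kdm1a FL/FL alleles (floxed copies of the gene of the histone demethylase LSD1) and CreERT. The medium was ES-KOSR with hygromycin at 150 ug/ml, on gelatin. Whether Cre had been activated is not given in the labels. As background, 2C reporters of this kind use the promoter of the retrovirus MuERV-L, an element active in the embryo at the 2-cell stage and in few cells of an ES culture. The reporter's transcript and the genes of the 2-cell state, such as the Zscan4 cluster, were not analysed here. The positive library held 37059813 alignments and the negative library 33833215, and the 5 spans together held 0.151% and 0.172% of them.

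The proteins of these genes hold ES cells in the undifferentiated state. Pou5f1 (Oct4) and Sox2 bind DNA side by side at octamer and SOX motifs and activate each other's genes and Nanog. Nanog is a homeobox factor of the same network, and Klf4 a zinc finger factor that acts downstream of the cytokine LIF. Zfp42 (Rex1) is a zinc finger factor used as a marker of the naive state. Cells with an active MuERV-L reporter have been described as losing the Pou5f1, Sox2 and Nanog proteins while keeping the transcripts, so the level of each transcript is the quantity that these libraries can give.

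The comparison asked how much transcript of each gene the reporter-positive library held beside the reporter-negative one. All 5 genes were covered in both libraries, and each took up a slightly to moderately smaller share of the positive library. The ratio of shares, positive to negative, was 0.974 for Pou5f1, 0.851 for Zfp42, 0.849 for Sox2, 0.740 for Nanog and 0.660 for Klf4. None of the 5 was 2-fold lower or higher. Each population has 1 library, so the differences have no replicate check and carry no p-value. Intervals below are 95% intervals that cover counting error only. In sorted cells in bulk, fewer cells with a transcript and less of it per cell cannot be told apart.

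The promoters of the members are shown because their own products are known to act on such motifs. All 5 matched an entry of the RefSeq promoter table of GRCm38.p6, a later build than that of the tracks. The stretch before the most upstream listed start is printed 5′ to 3′ on the strand of the gene, up to 250 bases, and ends before any annotated exon of the gene. It lies at chr17:35505782-35506017 (plus strand) for Pou5f1, chr3:34649745-34649994 (plus) for Sox2 and chr6:122707239-122707488 (plus) for Nanog. The stretch of Klf4 is chr4:55532476-55532725 (minus) and that of Zfp42 is chr8:43307010-43307259 (minus). Capitals mark matches, on either strand, to the octamer core TTTGCAT, the SOX motif CATTGT and the GC box GGGCGG, a motif of the Sp and Klf factors. Matches may overlap or touch, and are then marked as 1 run.
Pou5f1: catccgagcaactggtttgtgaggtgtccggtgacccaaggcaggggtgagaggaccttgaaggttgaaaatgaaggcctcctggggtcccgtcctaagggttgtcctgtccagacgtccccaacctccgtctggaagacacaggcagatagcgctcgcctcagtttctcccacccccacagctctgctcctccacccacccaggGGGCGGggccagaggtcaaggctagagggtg
Sox2: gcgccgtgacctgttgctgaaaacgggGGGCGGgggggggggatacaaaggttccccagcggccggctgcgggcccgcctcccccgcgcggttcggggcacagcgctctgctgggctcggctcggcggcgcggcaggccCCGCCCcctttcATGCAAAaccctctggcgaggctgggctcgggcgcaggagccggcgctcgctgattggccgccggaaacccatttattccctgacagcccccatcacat
Nanog: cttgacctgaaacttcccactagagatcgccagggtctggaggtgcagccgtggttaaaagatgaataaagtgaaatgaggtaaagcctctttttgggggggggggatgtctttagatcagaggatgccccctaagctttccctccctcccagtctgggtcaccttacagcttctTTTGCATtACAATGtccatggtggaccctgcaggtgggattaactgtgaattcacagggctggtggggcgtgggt
Klf4: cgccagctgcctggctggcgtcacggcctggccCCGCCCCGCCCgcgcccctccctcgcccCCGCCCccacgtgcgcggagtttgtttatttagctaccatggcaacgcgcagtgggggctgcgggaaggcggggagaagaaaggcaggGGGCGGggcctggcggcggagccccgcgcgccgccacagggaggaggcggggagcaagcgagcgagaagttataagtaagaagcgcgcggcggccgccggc
Zfp42: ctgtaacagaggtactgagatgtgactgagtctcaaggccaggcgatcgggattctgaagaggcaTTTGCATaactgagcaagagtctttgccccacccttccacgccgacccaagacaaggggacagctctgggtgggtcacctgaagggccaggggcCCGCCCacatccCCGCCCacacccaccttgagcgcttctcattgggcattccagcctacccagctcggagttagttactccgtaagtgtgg

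The octamer core was found 1 time each in the stretches of Sox2, Nanog and Zfp42, beginning 99, 75 and 185 bases before the listed start. It was in 4.12% of all 32851 promoter entries over the same 250 bases. In Nanog the octamer core and a SOX motif on the other strand lie 1 base apart and form an octamer-SOX composite. That composite, with any base between the motifs, was in 2 of all entries, both of them entries of Nanog, and was chosen after the sequence had been seen. The SOX motif alone was in 10.7% of entries. Pou5f1 and Klf4 held neither motif in this window. GC boxes, in 32.7% of entries, numbered 1 in Pou5f1, 2 in Sox2, 4 in Klf4, 2 in Zfp42 and 0 in Nanog. A match is a description of the letters, and the tracks do not measure binding.

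Pou5f1 was the most abundant of the 5 in both libraries. Its span, chr17:35642900-35647800, held 23793 reads in 2C::tomato+ cells and 22309 in 2C::tomato- cells. Here a read is a read equivalent, depth times length divided by the alignment length of 72 bases. Levels are in RPM, read equivalents in 1000000 alignments of the library, and were 642 (634 to 650.2) and 659 (651 to 668). The ratio was 0.974 (0.956 to 0.992), or -0.04 on the log2 scale, the closest to 1 of the 5 genes. Pou5f1 has 5 exons, and their ratios ran from 0.951 (0.920 to 0.982) in the fifth to 1.04 (0.962 to 1.12) in the second. The coverage of both libraries was nearly superimposed along the whole transcript.

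Sox2, the partner of Pou5f1, is a gene of a single exon. Its span, chr3:34548900-34551400, held 8252 reads in 2C::tomato+ cells and 8869 in 2C::tomato- cells, or 223 and 262 RPM. The ratio was 0.849 (0.824 to 0.875). Sox2 lies within the noncoding gene Sox2ot, and the tracks keep no strand, so reads of the 2 cannot be told apart. The flanks of 5000 bases held little, 42 and 36 alignments upstream and 9 and 7 downstream.

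Nanog was lower by more than Sox2. Its span, chr6:122657500-122664700, held 5675 reads in 2C::tomato+ cells and 7004 in 2C::tomato- cells, or 153 and 207 RPM. The ratio was 0.740 (0.714 to 0.766). All 4 exons lay below 1, at 0.777 (0.708 to 0.853), 0.774 (0.706 to 0.849), 0.748 (0.504 to 1.11) and 0.720 (0.689 to 0.752) in order from the 5′ end. The third of these rests on 50 and 61 alignments and includes 1.

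Klf4 was the least abundant and had the lowest ratio. Its span, chr4:55540000-55545400, held 2334 reads in 2C::tomato+ cells and 3228 in 2C::tomato- cells, or 62.98 and 95.4 RPM. The ratio was 0.660 (0.626 to 0.696), or -0.60 on the log2 scale. Each of its 5 exons was lower in the positive library. The lowest were the first, at 0.554 (0.472 to 0.648), and the second, at 0.522 (0.352 to 0.765). The third exon, which holds most of the coding sequence, was at 0.671 (0.621 to 0.726), from 1113 and 1514 alignments.

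Zfp42 was the other gene with high coverage. Its span, chr8:44380400-44392400, held 15758 reads in 2C::tomato+ cells and 16900 in 2C::tomato- cells, or 425 and 499.5 RPM. The ratio was 0.851 (0.833 to 0.870). Nearly all of its exon alignments, 98.1% and 98.5%, lay in the last exon, which holds the coding sequence and had a ratio of 0.844 (0.825 to 0.864). The 4 noncoding exons before it held 286 and 233 alignments together, a ratio of 1.12 (0.939 to 1.34). The intervals of the noncoding exons and the last exon do not overlap, so their ratios differ beyond counting error. Without replicates this does not show a difference between the sorted populations. The exon model of Zfp42 also had no clear lead over other places, and the difference was not tested across libraries.

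**Figure D1:**
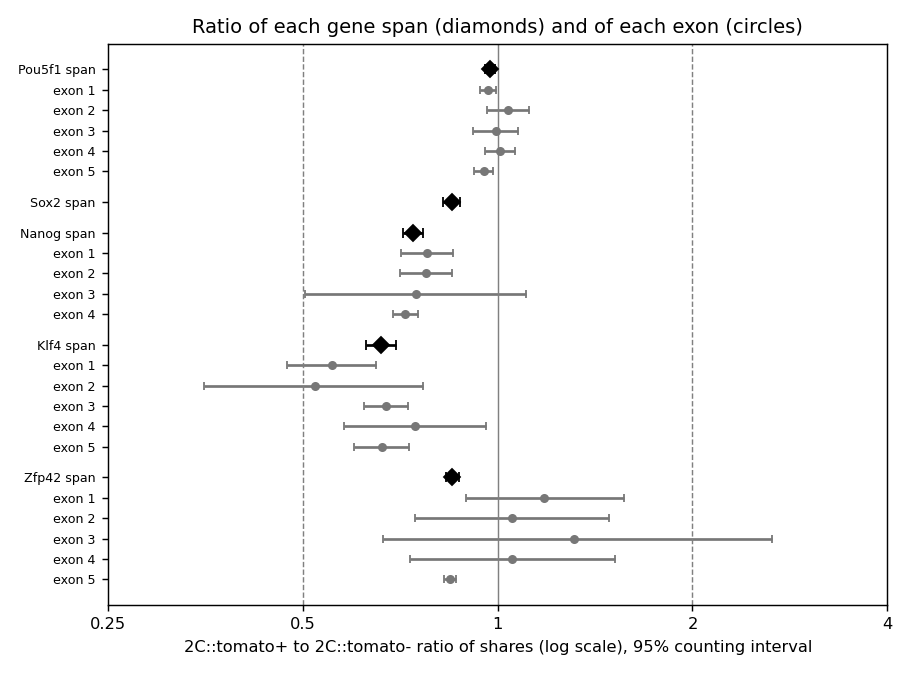
The x axis is the ratio of shares, 2C::tomato+ to 2C::tomato-, on a log scale, and each row is a gene span (black diamonds) or an exon numbered from the 5′ end (grey circles), with 95% counting intervals as bars. Solid and dashed lines mark equal shares and the 2-fold bounds. All 5 diamonds lie below 1 and above 0.5, with Klf4 lowest at 0.660 and Pou5f1 at 0.974. The first 4 exons of Zfp42 lie above 1 with intervals that include it. Exon values leave out reads that cross an exon edge.

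Levels between genes were compared per length, as alignments wholly inside exons, in RPM per kb of possible start positions. For Sox2, whose annotated exon of 2057 bases is shorter than its span, the whole span of 2501 bases was used, which lowers its level. In that unit Pou5f1 was at 619 in 2C::tomato+ cells and 637 in 2C::tomato- cells, and Zfp42 at 267 and 315. Sox2 was at 91.6 and 108, Nanog at 75.1 and 102, and Klf4 at 22.6 and 34.6. The order Pou5f1, Zfp42, Sox2, Nanog, Klf4 was the same in both libraries. Sox2 and Nanog were neighbours in that order and close in the negative library, at 106 to 110.1 against 99.5 to 104 by their counting intervals. Without replicates the spread of a level between libraries is unknown. The other neighbours in the order were well apart. Alignments in introns were sparse beside these levels. In the positive library they came to 0.391 RPM per kb for Pou5f1, 0.703 for Nanog, 0.268 for Klf4 and 1.48 for Zfp42. The introns of Nanog held 121 and 141 alignments, a ratio of 0.783 (0.609 to 1.01), and those of Zfp42 535 and 510, a ratio of 0.958 (0.847 to 1.08). The 5000 bases downstream of the Zfp42 span held 589 and 667 alignments, and the source of these was not analysed here.

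**Figure D2:**
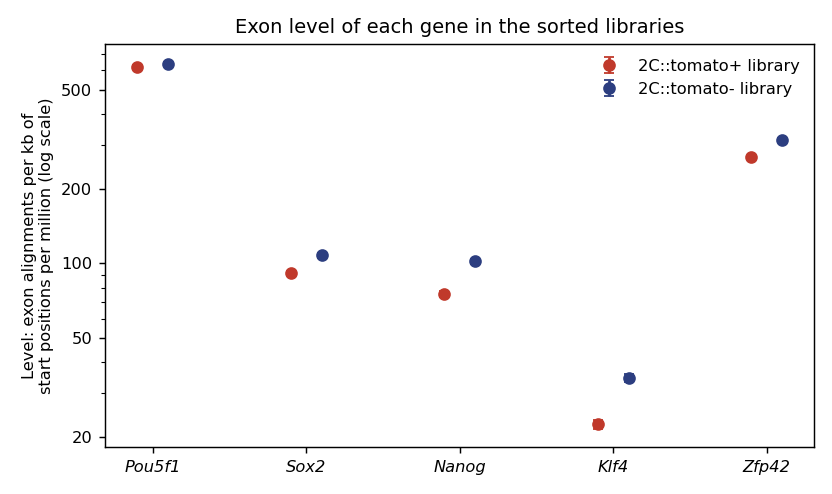
The y axis, on a log scale, gives the exon level in RPM per kb of start positions for each gene in the 2C::tomato+ (red) and 2C::tomato- (blue) libraries, and bars are 95% counting intervals, mostly smaller than the points. The points span from 22.6 for Klf4 in the positive library to 637 for Pou5f1 in the negative library, with the blue point above the red one for each gene.

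The deficit was not even along the transcripts. The joined exons of each gene were divided into 3 equal parts, a division made after the coverage had been seen. For Sox2 the whole span of 2501 bases was divided. It is longer than the annotated exon of 2057 bases, so some bases of its parts lie outside that exon. In Sox2 the 5′ part had a ratio of 0.897 (0.855 to 0.941) and the middle part 0.902 (0.863 to 0.943). The 3′ part, with 999 and 1510 reads, was at 0.604 (0.557 to 0.655). Without its 3′ part Sox2 had a ratio of 0.8998 (0.871 to 0.930). In Nanog the parts were at 0.777 (0.731 to 0.826), 0.771 (0.726 to 0.817) and 0.663 (0.621 to 0.708), and in Zfp42 at 0.907 (0.865 to 0.951), 0.855 (0.831 to 0.880) and 0.762 (0.724 to 0.803). Pou5f1, at 0.965, 1.02 and 0.9505, and Klf4, at 0.636, 0.681 and 0.640, showed no such step. A lower 3′ part was also common outside the 5 genes. Of 32 other genes that could be placed on the tracks, 25 had a lower ratio in the 3′ part than in the 5′ part. The 3′ ratio divided by the 5′ ratio had a median of 0.928 over those genes (0.734 to 1.33) and of 0.853 over the 5 members (0.673 for Sox2 to 1.01 for Klf4). The part that this difference between the libraries plays in the ratios of whole genes was not tested beyond the values without the 3′ part, which kept all 5 genes below 1 (0.664 for Klf4 to 0.985 for Pou5f1, whose interval of 0.964 to 1.01 then included 1).

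**Figure D3:**
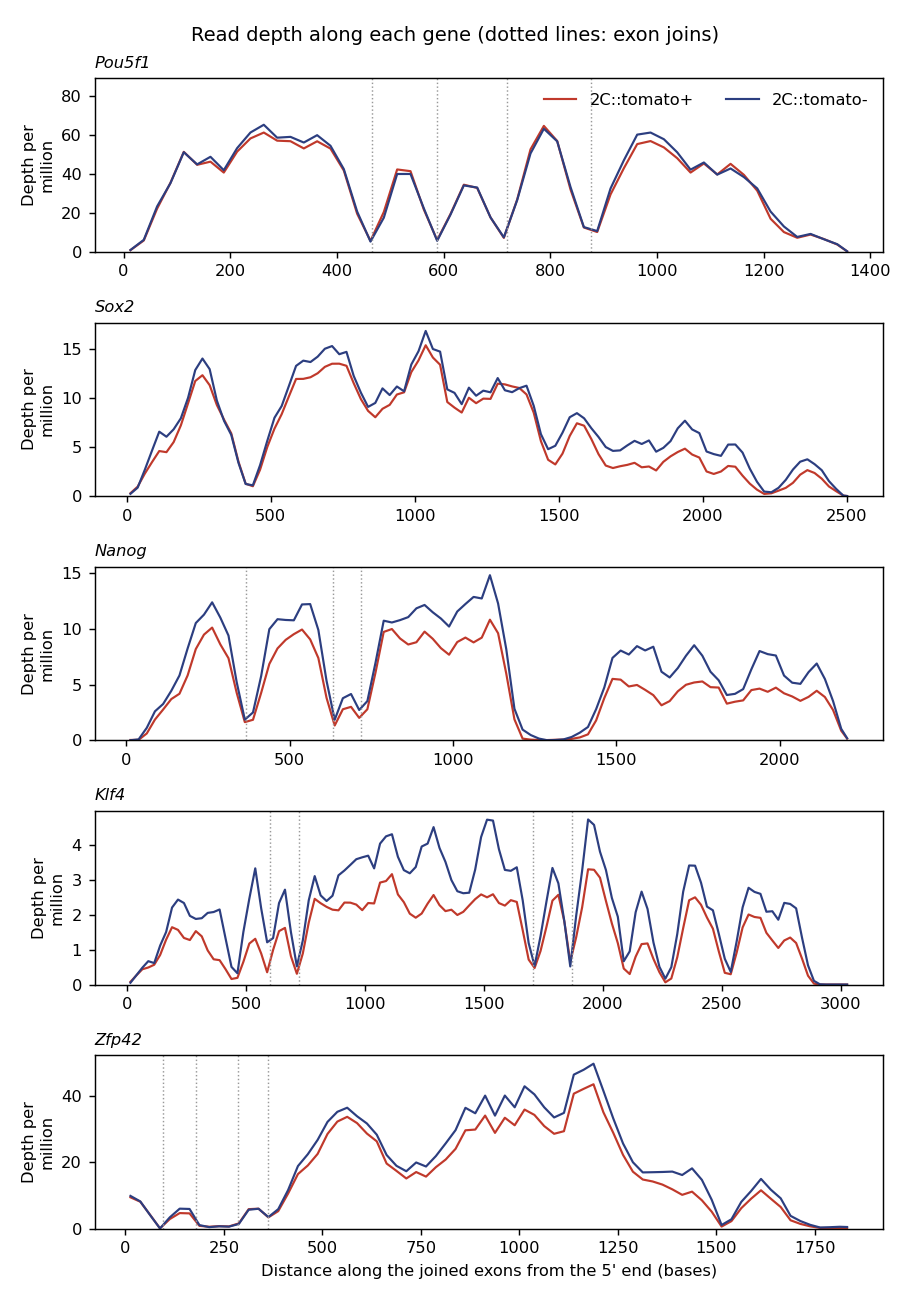
Each panel plots read depth, scaled to the library as RPM is (y axis), against the distance in bases along the joined exons from the 5′ end (x axis), averaged in bins of 25 bases, for the 2C::tomato+ (red) and 2C::tomato- (blue) libraries. Dotted lines are exon joins, where depth dips because only ungapped alignments are in the tracks. For Sox2 the whole span is drawn. The lines nearly coincide over most of Pou5f1, the blue line is higher in 86 of 89 bins of Nanog and 115 of 122 bins of Klf4, and in Sox2 the lines part most in the 3′ part.

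Parts of 4 genes were listed at other places of the genome as well. The same pattern of starts in both libraries recurred elsewhere for 19.6% of the alignments of Pou5f1 (at chr1:161223935-161224238 of mm9), 31.0% of those of Nanog (at chrX:87127683-87129143) and 35.5% of those of Zfp42 (at chr15:93509138-93510371). For Klf4 it was 15.4%, at 5 places on chromosomes 6, 9, 14 and 15, 2 of them on chromosome 9. No such stretch was found for Sox2. These shares are lower bounds, since a single read that fits 1 copy only breaks the match. Reads of such stretches cannot be assigned to the gene or its copy. With them left out the ratios were 0.974 for Pou5f1, 0.745 for Nanog, 0.657 for Klf4 and 0.849 for Zfp42. Reads shared with a copy can remain in these ratios. The place on chromosome 15, with 500 bases on each side, held 11255 and 11878 alignments, beside 5603 and 5976 left out of Zfp42.

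Against the rest of the genome the members ran from the middle of the well covered regions, for Pou5f1, to their lower edge, for Klf4. The genome was cut into 10 kb windows, and 48349 of these held 20 or more alignments. Of them 0.827% were at least 2-fold lower in the positive library with an interval below 1, and 4.62% were at least 2-fold higher with an interval above 1. With a minimum of 200 alignments the shares were 0.0523% and 0.797%, and with a minimum of 1000, which left 9492 windows, 0.0211% and 0.537%. None of the 5 members passed in either direction, a count near this background. An interval wholly below 1, at any fold, was found for all 5 members and for 29.5% of the windows with at least 1000 alignments, and one wholly above 1 for 20.2% of these windows. Intervals narrow as counts rise, and many of these windows held fewer alignments than any member, so these shares are not at like depth. The median ratio was 0.982 over these 9492 windows and 0.849 over the 5 members. The Klf4 ratio was above that of 0.190% of them, the Nanog ratio above 1.19%, Sox2 above 9.68%, Zfp42 above 9.98% and Pou5f1 above 46.8%. Windows are not genes, so these percentages place the values and test nothing.

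**Figure D4:**
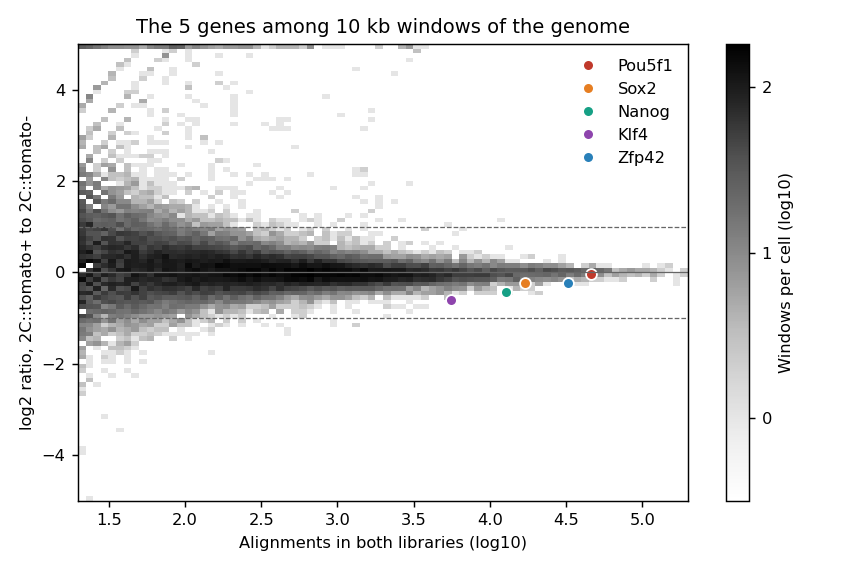
The x axis is the log10 of alignments in both libraries, the y axis the log2 ratio of 2C::tomato+ to 2C::tomato-, with values beyond 5 drawn at 5. Grey cells count windows of 10 kb, and dashed lines mark 2-fold. Coloured points are the 5 genes, which lie from -0.04 (Pou5f1) to -0.60 (Klf4), inside the 2-fold lines, with Klf4 and Nanog at the lower edge of the windows of like coverage.

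Other genes of the pluripotency network were looked up by the lengths of their exons and introns, since no annotation of mm9 was used here. Of 82 genes in the lists, 32 could be placed, and the rest were not analysed here. Placing a gene needs reads in its longer exons, enough such exons and a clear lead over other places, so a gene with many reads can stay unplaced. Nanog, Klf4 and Zfp42 themselves did not pass these limits. Over the 32 placed genes the median ratio was 0.928, with 16 intervals below 1 and 9 above 1. Ratios of these genes are counted in exons. Of the 15 genes of the naive network list 7 were placed, none of them 2-fold changed, with a median ratio of 0.899 and 6 of 7 below 1. Among 4 of these named by rule, Sall4, a zinc finger partner of Pou5f1, was at 0.847 (0.827 to 0.868). Esrrb, a nuclear receptor of the naive network, was at 0.866 (0.842 to 0.891). Stat3, the factor that relays LIF, was at 0.952 (0.889 to 1.02). Tcf7l1, a repressor of the network, was at 1.06 (0.998 to 1.13).

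In the list of stem cell genes and targets of Pou5f1 and Sox2, 10 of 20 were placed, with a median of 1.05. Of these, 1 was 2-fold higher and none was 2-fold lower. That 1 was Lefty1, an inhibitor of Nodal signalling, at 2.26 (2.04 to 2.50) from 1298 and 525 alignments. It was at 1.69 when each start position was counted 1 time, and its reads may be shared with the near-identical Lefty2. Fbxo15, an F-box gene, was at 1.21 (1.14 to 1.28). Tdgf1, a Nodal co-receptor, was at 0.9099 (0.883 to 0.938), and L1td1, an RNA-binding protein of ES cells, at 0.914 (0.893 to 0.935). Of the 10 genes 6 had an interval above 1 and 2 an interval below 1, beside 9 and 16 of all 32 placed genes.

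The LIF receptor pathway list had 4 of 5 genes placed, with a median of 0.898. The receptor genes Lifr, at 0.809 (0.747 to 0.874), and Il6st, at 0.852 (0.789 to 0.920), stood beside the kinase genes Jak1, at 0.944 (0.857 to 1.04), and Pim1, at 1.09 (1.03 to 1.17). The intervals of Il6st and Jak1 overlap. Of the 8 primed or epiblast genes 2 were placed. Dnmt3b, a DNA methyltransferase, was at 1.13 (1.097 to 1.16), and Lef1, a mediator of Wnt signals, at 0.999 (0.780 to 1.28).

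Of the 7 housekeeping genes 5 were placed, with a median of 0.911, close to the 0.928 of all placed genes. All 5 had intervals below 1, beside 16 of all 32. Pgk1, a glycolytic enzyme, was at 0.738 (0.713 to 0.764), as low as Nanog. Hprt, of purine salvage, was at 0.858 (0.785 to 0.937), Tbp, the TATA-binding protein, at 0.911 (0.845 to 0.982), and Sdha, of the respiratory chain, at 0.916 (0.868 to 0.966). Pgk1 and Hprt have processed copies elsewhere in the genome, so their counts are uncertain. None of the list genes was searched for repeated stretches, so the others can hold shared reads as well. The 3 placed genes whose ratio was nearest to the members' median of 0.849 were Sall4, Il6st and Hprt. With 2 libraries this likeness is the likeness of a single ratio.

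Markers of other cell types that an ES culture could hold were mostly not placed. None of the 7 primitive endoderm, 4 mesoderm or 6 fibroblast markers was placed, which does not show that they are absent. Of 7 trophoblast markers 3 were placed. The keratin genes Krt18 and Krt8 were at 1.25 (1.14 to 1.36) and 1.03 (0.964 to 1.10), and Tfap2c, a factor also present in ES cells, was at 0.862 (0.805 to 0.924). Tubb3, a tubulin of neurons, was at 0.909 (0.840 to 0.983). The part of other cell types in the ratios of the core factors was not tested.

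**Figure D5:**
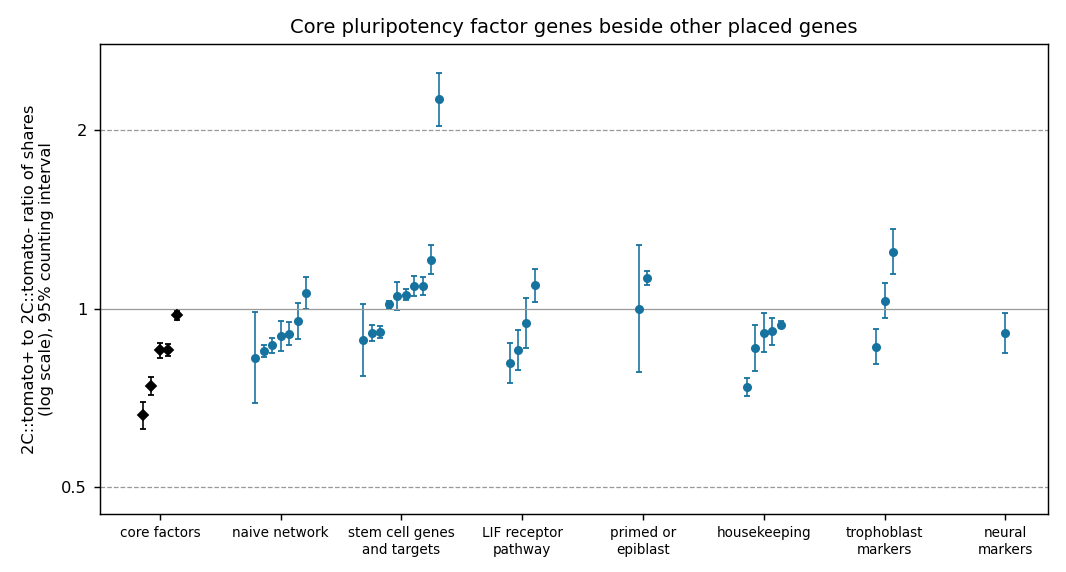
The y axis is the ratio of shares, 2C::tomato+ to 2C::tomato-, on a log scale, for the 5 core factor genes (black diamonds) and the 32 placed genes of the other lists (blue circles), sorted within each list, with 95% counting intervals as bars. Lines mark equal shares and the 2-fold bounds. The core factors run from 0.660 to 0.974, the housekeeping genes from 0.738 to 0.940, and the only point beyond 2-fold is Lefty1 at 2.26.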

How the data were processed

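The authors deposited 1 coverage signal track per library, which gives the number of aligned reads over each base, not scaled to depth. Per the submitters' processing notes, reads were aligned with Bowtie to mm9. For Bowtie's version and filters, the sources used here give nothing. The header of each track names 1 sorted alignment file, and strand is not kept.

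Each track was decoded into ungapped alignments of 72 bases: every start count was a whole number of at least 0. The positive library held 37059813 alignments and the negative library 33833215. Ratios are of shares of these totals, with exact conditional binomial (Clopper-Pearson) 95% intervals. Reads listed at several places are counted at each of them in these totals, and their number over the genome was not determined. Levels have exact counting intervals of 95%. All intervals cover counting error only: reads carry no molecular identifiers and may be copies of 1 molecule. The size rule is at least 2-fold with an interval excluding 1.

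Repeated stretches are runs of 8 start positions within 64 bases with at least 20 starts that recur exactly in both libraries, in either orientation. Exon models are GENCODE M21, a GRCm38 annotation of which only exon and intron lengths were used. A model was slid along its chromosome, up to 10 Mb either way, over both libraries summed. The score compares exon density with density outside, less the spread over exons. A gene was placed with at least 4 exons of 90 bases or more, at least 50 alignments, a score of at least 3 and a lead of at least 1 over the next place. This score replaced a first one that missed members, and its limits were set after seeing the scans. Neither uses the ratio. The best place lay in the given span for the 4 members with several exons, 1 of which also passed the limits. Sox2, with 1 exon, cannot be placed so, and its span was used whole. The design had asked for all 5. Of 57 mirrored models none was placed.

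Under the naming rule, in each list the 2 genes with the highest and the 2 with the lowest ratio by interval bound, among those with at least 200 alignments, are named, with the 3 nearest to the members' median. Members and lists were chosen with earlier results of these data known. Counting was tested on simulated data. Python 3.11.15, numpy 2.4.6, scipy 1.17.1, pandas 2.3.3 and matplotlib 3.10.9 were used.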

Additional observations from a re-analysis of the deposited data

How the results depend on the processing

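The 5 ratios were recomputed under 9 alternatives, 44 values in all. None rose above 1 and none reached 2-fold, and 37 stayed within the counting interval of the value given. Those outside it were all 5 genes with each start position counted 1 time, and Sox2 and Nanog without the 3′ part. With each start position counted 1 time, Pou5f1 was at 0.924 with an interval of 0.848 to 1.01 that includes 1, Sox2 at 0.918, Nanog at 0.882, Klf4 at 0.794 and Zfp42 at 0.933. Under this count a gene with equal positions in use in both libraries has a ratio of 0.913, the ratio of the library totals. A value below 1 is then partly set by the scaling and does not by itself show a lower share. Pou5f1, Sox2 and Zfp42 lay above 0.913, and Nanog and Klf4 below it. Of the 5, only Klf4 had an interval, 0.732 to 0.861, that left out 0.913. In Pou5f1 95.6% and 94.4% of the possible exon start positions were in use. Without the 3′ part of the exons (of the span for Sox2), an alternative added after the data were seen, Sox2 was at 0.8998 and Nanog at 0.774. Covered blocks, annotated exons, a span widened by 1000 bases, median-ratio scaling, leaving out mitochondrial reads, leaving out repeated stretches and thinning gave ratios within the counting interval. Most of these recount largely the same alignments, and mitochondrial reads were only 0.491% and 0.542% of the libraries. Such values could move little, so the 37 are a weak check. Sox2 has no separate value for annotated exons. The 1 list gene at least 2-fold higher became 0 with each start position counted 1 time. Windows at least 2-fold higher numbered 2232, and 183 and 51 with at least 200 and 1000 alignments. Those at least 2-fold lower numbered 400, and then 12 and 2. No paired analysis was possible because neither sorted population has a replicate, and for the same reason none could be left out. None of these settings measures biological variation.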
